A study of Mus musculus with 4 samples.

Results

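The cadherins Cdh1 and Cdh2, the epithelial genes Epcam, Cldn4, Cldn6, Esrp1, Krt8 and Krt18 and the repressors Zeb1 and Zeb2 were followed in wild-type and Zfp57-/- cells. Both groups are labelled as neural precursor cells, and the paper describes the Zfp57-/- cells as only partially differentiated. These 10 genes were chosen by name among the 55602 genes of the bulk count table. They are markers of epithelial identity and of the switch between E-cadherin and N-cadherin. The choice was made with earlier results of these data known, so the shares of all genes given beside them are no blind comparison. All 10 were also measured in the allele-specific table. The cells were male JB1 hybrids of a JF1 mother and a C57BL/6 (B6) father, in which sequence differences between the strains tell the maternal JF1 RNA from the paternal B6 RNA. The wild-type group and the Zfp57-/- group had 2 libraries each. Zfp57 encodes a zinc-finger protein that keeps DNA methylation at imprinting control regions, and the Zfp57-/- cells were 1 knockout line derived from JB1. In both groups, embryonic stem cells grown with the Gsk3 inhibitor CHIR99021 were differentiated in defined medium, received the hedgehog inhibitor cyclopamine at 1 µM from day 2 to day 10, and were harvested at day 12. With 1 line per genotype, the genotype and the line cannot be told apart, and the p-values measure the spread between duplicate cultures of a line.

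Epithelial cells are held together by E-cadherin, the product of Cdh1, and are sealed at the apical side by claudins such as Cldn4 and Cldn6. The neural plate starts as an epithelium that carries E-cadherin and exchanges it for N-cadherin, the product of Cdh2, as it becomes neural tissue. Zeb1 and Zeb2 encode zinc-finger repressors that bind E-boxes of the sequence CACCTG in promoters of epithelial genes, and both are made in the developing nervous system. Mouse embryonic stem cells also express Cdh1 and Epcam, and Krt8 and Krt18 are the keratins of simple epithelia.

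Fragments counted in genes numbered 7663520 to 10337082 per library, and 36.1% to 37.0% as many carried an allele. Zfp57 itself was counted 392 and 249 times in the wild-type libraries and 158 and 144 times in the Zfp57-/- libraries. The knockout removed only a portion of the gene and the count covers all of it, so this level is a weak check of the labels. By allele, Zfp57 had 0 JF1 reads of 158 in Zfp57-/- cells, which allow a JF1 share of up to 0.019 (3 reads), and 235 of 365 in wild-type cells. The neural cell markers were present in wild-type libraries, at a summed level of 1768 and 2163 CPM (counts scaled to a common library size with TMM factors) over 8 genes, against 404 and 360 CPM in Zfp57-/- libraries. The neuronal genes Dcx and Map2, which had the smallest adjusted p of these markers, had means of 238 and 659 CPM in wild-type and 2.77 and 35.1 CPM in Zfp57-/- cells. The summed level of 8 pluripotent cell markers was 3.71 and 7.45 CPM in wild-type and 1269 and 1109 CPM in Zfp57-/- libraries. Pou5f1, which encodes a core pluripotency factor, was counted 1 and 6 times in wild-type and 2747 and 2286 times in Zfp57-/- libraries. In bulk libraries, fewer cells of a type and less RNA per cell cannot be told apart.

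All 10 genes differed between the genotypes. The epithelial genes Cdh1, Epcam, Cldn4, Cldn6, Esrp1, Krt8 and Krt18 were higher in Zfp57-/- cells, by 2.48-fold for Epcam to 7.70-fold for Krt18, and Cdh2, Zeb1 and Zeb2 were lower. The test was edgeR's quasi-likelihood test with Benjamini-Hochberg adjustment over the 19995 genes with more than 8 counts in all, and the threshold was an adjusted p of 0.05. Of all genes tested, 13% passed it as higher, 14.6% as lower and 27.6% in either direction. The wild-type and Zfp57-/- values did not overlap for any of the 10 genes. This was so for 66.3% of all genes tested, with 33.7% higher and 32.6% lower in Zfp57-/- cells.

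**Figure D1:**
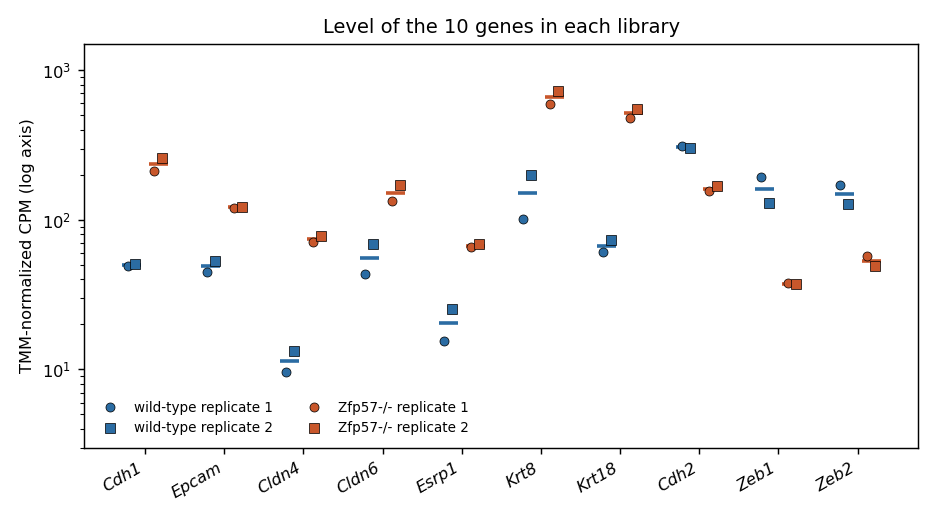
Level of the 10 genes in each of the 4 libraries, in TMM-normalized CPM on a log axis. Circles and squares are replicates 1 and 2, blue is wild-type, orange is Zfp57-/-, and the bars are means of 2 libraries. The Zfp57-/- points lie above the wild-type points for the first 7 genes and below them for Cdh2, Zeb1 and Zeb2.

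Cdh1, on chromosome 8 (106603351-106670246, plus strand, GRCm38), stood at 48.9 and 51.1 CPM in wild-type and at 211 and 260 CPM in Zfp57-/- libraries. The wild-type libraries were nearly equal and the Zfp57-/- libraries were 4.71-fold higher, with a log2 fold change of 2.23 ± 0.20 (SE) and an adjusted p of 4.8e-05. Cdh2, on chromosome 18, stood at 313 and 303 CPM in wild-type and at 155 and 168 CPM in Zfp57-/- libraries. The log2 fold change of Cdh2 was -0.93 ± 0.18 (SE), with an adjusted p of 0.00477, so that this gene changed least among the 10. Cdh2 was also the only gene of the 10 whose call depended on a library: without Zfp57-/- replicate 1 its adjusted p by the same edgeR test was 0.15, and without Zfp57-/- replicate 2 it was 0.0909.

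To set levels of different genes side by side, CPM were divided by the length of each gene model in kb. In wild-type libraries the ratio of Cdh1 to Cdh2 per kb was 0.275 and 0.297, so that Cdh2 RNA was 3.63 and 3.37 times as abundant as Cdh1 RNA. In Zfp57-/- libraries the ratio was 2.40 and 2.73, and Cdh1 was the more abundant of the pair in both. The ratio differed by 3.16 on the log2 scale, an 8.95-fold change, and does not depend on library scaling. It takes both alleles together, and wild-type Cdh1 RNA held 0 reads of the B6 allele. On the JF1 allele alone, the log2 change was 1.14 for Cdh1 and -0.78 for Cdh2. A two-sided exact permutation test gave p = 0.333, which is the smallest that 2 against 2 libraries allow. The order of levels per kb in wild-type cells was Krt8, Krt18, Cdh2, Cldn6, Epcam, Zeb1, Cdh1, Zeb2, Cldn4 and Esrp1, with Krt8 at 77.0 and Esrp1 at 3.24 CPM per kb. The ranges of Cdh2 and Cldn6 and of Zeb2 and Cldn4 overlapped, and the other neighbours in this order did not. In Zfp57-/- cells the order was Krt18, Krt8, Cldn6, Epcam, Cdh1, Cldn4, Cdh2, Esrp1, Zeb1 and Zeb2, from 359 CPM per kb for Krt18 to 2.66 for Zeb2. There, the ranges of Krt18 and Krt8 and of Epcam and Cdh1 overlapped. Cdh2 moved from rank 3 to rank 7 and Cdh1 from rank 7 to rank 5.

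**Figure D2:**
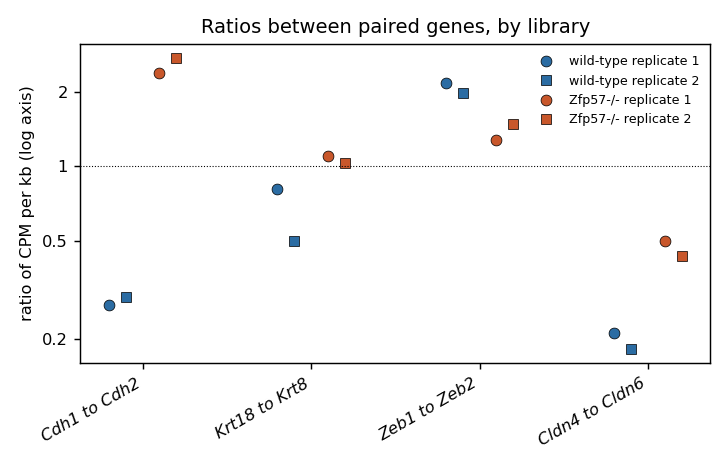
Ratio of levels per kb between paired genes in each library, on a log axis, for wild-type (blue) and Zfp57-/- (orange) replicates 1 (circles) and 2 (squares). The dotted line marks equal levels. The ratio of Cdh1 to Cdh2 lies at 0.275 and 0.297 in wild-type and at 2.40 and 2.73 in Zfp57-/- libraries.

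The promoter windows of the epithelial genes were read for the E-box CACCTG and its reverse complement CAGGTG, the letters that Zeb proteins bind. RefSeq windows of 300 bases (GRCm38.p6, 250 upstream of the start site and the first 50 of the transcript) were given for 6 of the 10 genes. Cdh1, Esrp1, Cdh2 and Zeb1 had no entry. Epcam, Cldn4 and Cldn6 held 2 E-boxes each and Krt8 and Krt18 held 1 each, while none of the 4 windows of Zeb2 held any. An E-box on either strand was found in 20.2% of all 32851 windows, and 2.9% held 2 or more. By gene, 22.6% of 27025 genes had at least 1 window with an E-box, against 10 of 14 epithelial junction and polarity genes, 7 of 10 epithelial regulators and surface proteins and 4 of 7 other keratins with a window. The other claudins, at 3 of 15, lay near the share of all genes, and the pluripotent cell markers (3 of 6), catenins (3 of 7) and endoderm markers (2 of 5) lay above it. Of the neural cell markers 1 of 7 held an E-box. These are matches of letters in windows and show no binding. The sequences are printed because they show where the matches lie in 4 of these genes, 5′ to 3′ on the strand of the gene, with the E-boxes in capitals. For Epcam, Cldn4 and Krt18 the stretch ends before the first base of the gene model, and for Cldn6, whose E-box lies between the GENCODE and the RefSeq start, 30 bases around it are shown. The second E-box of Cldn4 starts at base 12 and that of Cldn6 at base 41 counted from the RefSeq start, and neither is printed.
Epcam, chr17:87635729-87635978, plus strand: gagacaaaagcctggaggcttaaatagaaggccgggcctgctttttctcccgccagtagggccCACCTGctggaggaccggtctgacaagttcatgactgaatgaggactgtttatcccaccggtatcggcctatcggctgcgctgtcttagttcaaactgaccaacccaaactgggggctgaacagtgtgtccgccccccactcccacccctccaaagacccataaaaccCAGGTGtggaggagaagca
Cldn4, chr5:134946935-134947184, minus strand: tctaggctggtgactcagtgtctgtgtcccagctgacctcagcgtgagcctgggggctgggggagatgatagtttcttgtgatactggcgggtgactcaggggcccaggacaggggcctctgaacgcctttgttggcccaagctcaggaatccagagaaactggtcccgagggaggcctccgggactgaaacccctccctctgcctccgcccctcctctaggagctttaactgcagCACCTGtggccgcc
Krt18, chr15:102027966-102028179, plus strand: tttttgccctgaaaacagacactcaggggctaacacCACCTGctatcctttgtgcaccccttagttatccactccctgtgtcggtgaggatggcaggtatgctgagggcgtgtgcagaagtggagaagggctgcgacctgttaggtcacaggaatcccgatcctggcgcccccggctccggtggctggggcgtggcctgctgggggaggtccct
Cldn6, chr17:23679260-23679289, plus strand: gggaaacgcacgCAGGTGgctatcgccgca
The E-boxes of Epcam start 187 and 19 bases before the RefSeq start (-187 and -19), and that of Cldn4 starts at -14. Those of Krt18 and Cldn6 start at -214 and -93.

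Among the genes of the epithelial surface, Epcam (chromosome 17, 87635979-87651129, plus strand), which encodes an adhesion protein of epithelial and embryonic stem cells, stood at 45.0 and 53.1 CPM in wild-type and at 120 and 123 CPM in Zfp57-/- libraries. Replicates were close together in both groups, and the log2 fold change was 1.31 ± 0.19 (SE), with an adjusted p of 0.000917. Cldn4 (chromosome 5, 134945119-134946934, minus strand), a claudin that seals against ions, stood at 9.66 and 13.3 CPM in wild-type and at 70.6 and 78.0 CPM in Zfp57-/- libraries. Its log2 fold change was 2.69 ± 0.23 (SE), with an adjusted p of 3.4e-05. Cldn6 (chromosome 17, 23679249-23682446, plus strand), a claudin of embryonic epithelia, stood at 43.2 and 68.7 CPM in wild-type and at 134 and 170 CPM in Zfp57-/- libraries. The wild-type replicates of Cldn6 lay further apart than those of Epcam, and its log2 fold change of 1.44 ± 0.25 (SE) had an adjusted p of 0.00248. The ratio of Cldn4 to Cldn6 per kb was 0.212 and 0.183 in wild-type and 0.499 and 0.435 in Zfp57-/- libraries, so that Cldn6 remained the more abundant claudin in every library while the gap narrowed.

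Esrp1 (chromosome 4, 11331933-11386783, minus strand) encodes an RNA-binding protein that directs epithelial splice forms. It stood at 15.6 and 25.3 CPM in wild-type and at 65.6 and 68.5 CPM in Zfp57-/- libraries, a log2 fold change of 1.71 ± 0.25 (SE) with an adjusted p of 0.000882. The splice forms themselves cannot be read from counts per gene.

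Krt8 and Krt18, neighbours on chromosome 15 (101996698-102004482, minus strand, and 102028180-102032027, plus strand), encode a type II and a type I keratin that assemble together into filaments. Krt8 stood at 102 and 200 CPM in wild-type and at 593 and 724 CPM in Zfp57-/- libraries. The wild-type replicates lay far apart, and the cytoskeletal gene Actb did as well, at 1812 CPM in wild-type replicate 1 and at 3596 to 4013 CPM in the other libraries. The log2 fold change of Krt8 was 2.13 ± 0.30 (SE), with an adjusted p of 0.000725, and it was 1.69 without wild-type replicate 1. Krt18 stood at 60.7 and 73.1 CPM in wild-type and at 480 and 550 CPM in Zfp57-/- libraries. With a log2 fold change of 2.94 ± 0.21 (SE) and an adjusted p of 1.3e-05, it showed the largest difference of the 10 genes. Krt18 relative to Krt8 per kb was 0.811 and 0.499 in wild-type and 1.10 and 1.04 in Zfp57-/- libraries, so that the keratins of the pair were nearly equal in Zfp57-/- cells. Keratin genes have processed copies elsewhere in the genome, and reads that aligned to more than 1 place had been discarded.

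The repressors moved the other way. Zeb1, on chromosome 18, stood at 193 and 129 CPM in wild-type and at 37.7 and 37.2 CPM in Zfp57-/- libraries. Its log2 fold change was -2.11 ± 0.24 (SE), with an adjusted p of 0.00017, a 4.31-fold lower level. Zeb2 (chromosome 2, 44983632-45117395, minus strand) stood at 172 and 127 CPM in wild-type and at 57.1 and 48.9 CPM in Zfp57-/- libraries. Its log2 fold change was -1.50 ± 0.22 (SE), with an adjusted p of 0.000851, a 2.82-fold lower level. Both repressors were higher in wild-type replicate 1 than in replicate 2, and each of the 7 epithelial genes was lower in it. The ratio of Zeb1 to Zeb2 per kb was 2.18 and 1.97 in wild-type and 1.28 and 1.48 in Zfp57-/- libraries, and Zeb1 was the more abundant in each library. Both genes are expressed in neural tissue, and 7 of 8 neural cell markers were lower in Zfp57-/- cells by the same test, against 14.6% of all genes tested. The part of that difference in the levels of Zeb1, Zeb2 and Cdh2 was not tested. Likewise, all 8 pluripotent cell markers were higher in Zfp57-/- cells, against 13% of all genes tested. The part of these markers in the levels of Cdh1 and Epcam was not tested.

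Another scale moved some of these calls. With Actb as the scale, which put the median of all genes tested at -0.68 instead of -0.01 on the log2 scale, Cdh1, Cldn4, Krt8 and Krt18 stayed past the threshold as higher. Cdh2, Zeb1 and Zeb2 stayed past it as lower. Epcam, Cldn6 and Esrp1 kept their direction but had adjusted p of 0.398, 0.255 and 0.117. Relative to the median of all genes, their log2 changes on that scale were 1.34, 1.54 and 1.82. The share of higher genes among all calls was 14% with Actb as the scale and 47.2% with TMM.

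Of 22 epithelial junction and polarity genes beside the 10, 15 rose, 0 fell and 7 did not pass, against 13% higher and 14.6% lower over all genes tested. The median log2 fold change of these 22 was 1.40, against -0.01 over all genes tested. The smallest adjusted p values were those of Pkp2 and Dsp, which encode plaque proteins of desmosomes. Pkp2 rose from a mean of 23.0 to 83.7 CPM (log2 1.86 ± 0.20 SE, adjusted p = 0.000147) and Dsp from 81.2 to 255 CPM (log2 1.65 ± 0.22 SE, adjusted p = 0.000457). Of 18 epithelial regulators and surface proteins, 11 rose and 1 fell, against those same shares of all genes, with a median log2 fold change of 1.59. Grhl3, which encodes a grainyhead factor of surface epithelium, rose from 5.73 to 26.8 CPM, and Spint1, which encodes an inhibitor of epithelial serine proteases, rose from 14.2 to 48.0 CPM. The gene that fell was Cd24a, which encodes a surface glycoprotein found on epithelial and neural cells, from 528 to 317 CPM with an adjusted p of 0.0402, which was 0.347 without Zfp57-/- replicate 1 and 0.175 without replicate 2. Without either Zfp57-/- library in turn 7 of these regulators and surface proteins passed, and with Actb as the scale 0 genes of both lists did.

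Of 10 other keratins tested, 4 rose and 0 fell, against 13% higher and 14.6% lower over all genes tested. Krt19, which encodes a type I keratin of simple epithelia, rose from 14.4 to 40.1 CPM (log2 1.48 ± 0.25 SE, adjusted p = 0.00183). Krt42 had 0 counts in both wild-type libraries and 10 and 17 in Zfp57-/- libraries, at least 4.28-fold higher against a floor of 3 counts per library. The median log2 fold change of these keratins was 1.36. Of 13 other claudins tested, only Cldn7 passed, against 27.6% of all genes tested. Cldn7 rose from 6.45 to 27.2 CPM (log2 2.05 ± 0.33 SE, adjusted p = 0.00158). The median log2 fold change over the other claudins was 0.04, near that of all genes tested.

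Of 17 other classical and related cadherins tested, 2 rose and 7 fell, against 13% higher and 14.6% lower over all genes tested. Their median log2 fold change was -0.78. Cdh3, which encodes the placental cadherin found in epithelia, rose from 26.7 to 52.1 CPM (log2 0.96 ± 0.19 SE, adjusted p = 0.00546), and Cdh15 rose from 0.996 to 4.03 CPM with an adjusted p of 0.0493 by edgeR and 0.0545 by DESeq2. Cdh22 and Cdh8, cadherins of the brain, fell from 14.8 to 1.05 CPM and from 27.3 to 0.721 CPM. Their adjusted p values were 9.2e-05 and 0.000842, although Cdh8 had 348 and 121 counts in the wild-type libraries and so differed between them. Of 8 catenins that bind cadherin tails, 1 rose and 4 fell, against the same shares of all genes. Ctnna1, the epithelial alpha-catenin, rose from 336 to 568 CPM (log2 0.75 ± 0.23 SE, adjusted p = 0.0337). Ctnna2 and Ctnnd2, the neural alpha- and delta-catenins, fell from 132 to 9.55 CPM and from 53.7 to 9.32 CPM, with adjusted p of 4.9e-06 and 0.000106. Ctnnb1 and Ctnnd1, which encode the catenins shared by both cadherins and were singled out after their values were seen, had log2 fold changes of -0.11 and 0.17 with adjusted p of 0.734 and 0.601. When Zfp57-/- replicate 1 or replicate 2 was left out, 4 and 5 of the cadherins passed. Cdh3 then had an adjusted p of 0.0818 and 0.0667, Cdh15 of 0.177 and 0.162, and Ctnna1 of 0.135 and 0.258.

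Of 17 other mesenchymal genes and repressors tested, 7 rose and 2 fell in Zfp57-/- cells, against 13% higher and 14.6% lower over all genes tested. Their median log2 fold change was 0.56. Fn1, which encodes the matrix protein fibronectin, rose from 499 to 1514 CPM with an adjusted p of 0.000679, and Tagln, which encodes an actin-binding protein of smooth muscle, from 32.3 to 232 CPM (log2 2.83 ± 0.43 SE, adjusted p = 0.00109). Twist1 and Prrx1, mesenchymal transcription factors, fell from 17.0 to 7.73 CPM and from 30.1 to 15.4 CPM, with adjusted p of 0.0159 and 0.0127. Without Zfp57-/- replicate 1 these were 0.0652 for Twist1 and 0.109 for Prrx1, and without replicate 2 they were 0.232 and 0.159. The repressors Snai1 and Snai2, singled out after their values were seen, had log2 fold changes of 0.11 and 0.56 with adjusted p of 0.91 and 0.411. Snai3, of the same family and list, passed as higher (log2 4.04 ± 0.90 SE, adjusted p = 0.00879). It had 1 count in each wild-type library and 19 in each Zfp57-/- library. Epithelial genes are also expressed by other cell types, whose markers were counted. Of 10 endoderm markers 2 rose and 1 fell, a share near the 27.6% of all genes tested, with Cubn, a receptor of visceral endoderm and kidney, rising from 29.6 to 148 CPM and Sox7 falling from 14.7 to 7.44 CPM. Sox7 had an adjusted p of 0.0268, which was 0.23 and 0.263 without Zfp57-/- replicate 1 and replicate 2. The summed endoderm level was 374 and 544 CPM in wild-type and 576 and 829 CPM in Zfp57-/- libraries. Of 5 trophoblast markers tested 3 rose and 0 fell, against 13% higher and 14.6% lower over all genes tested. Eomes rose from 1.14 to 39.8 CPM while Elf5 stayed at 0 to 2 counts per library. Cdx2, singled out after its values were seen, did not pass. It had 3.34 and 19.6 CPM in wild-type and 5.69 and 6.85 CPM in Zfp57-/- libraries. Of 5 surface ectoderm markers tested 1 rose and 2 fell, against the same shares of all genes. Perp rose from 9.31 to 43.9 CPM and Tfap2b fell from 88.8 to 3.27 CPM. Of 6 endothelial markers 2 rose and 1 fell, against those shares as well. Their summed level was 81.1 and 65.5 CPM in wild-type and 86.6 and 104 CPM in Zfp57-/- libraries. The part of these cell types in the levels of the 10 genes was not tested.

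**Figure D3:**
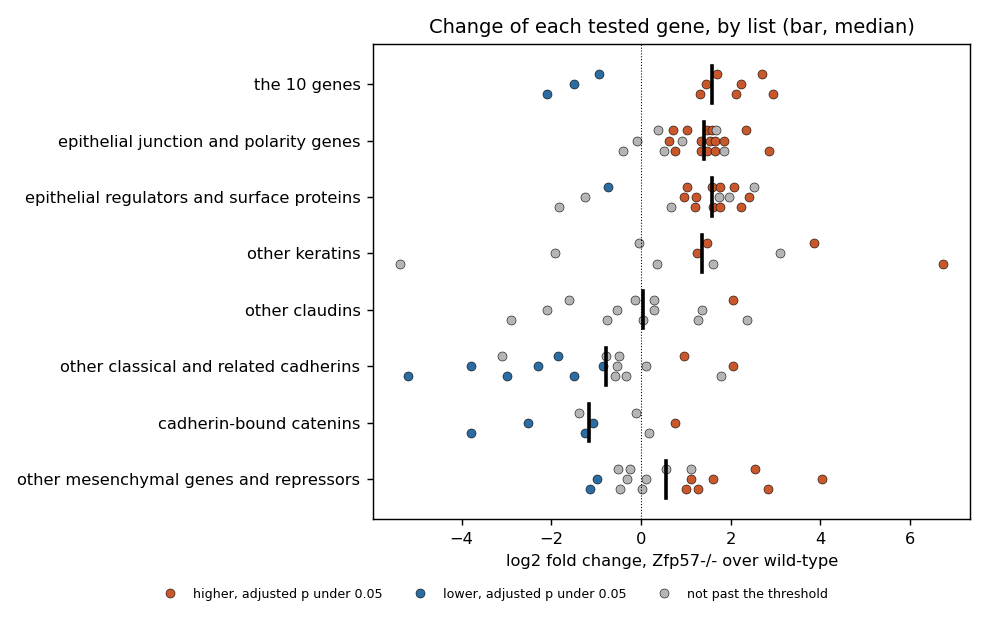
Log2 fold change of Zfp57-/- over wild-type for each tested gene, by list, with the median of each list as a bar. Orange and blue points passed an adjusted p of 0.05 as higher and lower, and grey points did not. The medians are 1.40 and 1.59 for the epithelial lists, 0.04 for the other claudins, -0.78 for the other cadherins and -1.16 for the catenins.

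The genes whose profile over the 4 libraries was most like that of Cdh1 were sought among 6271 genes with a mean log2 CPM of at least 5, by the Euclidean distance of log2 CPM centred on each gene's mean. Lactb2, Hmga1 and Slc16a1 were nearest, at distances of 0.179, 0.203 and 0.207, and none of them is in the lists above. For Cdh2, Os9 and Ppp2r5e were nearest, at distances of 0.0327 and 0.0335.

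By allele, Cdh1 RNA came from JF1 alone in wild-type cells and from both alleles in Zfp57-/- cells. Wild-type libraries had 140 and 169 JF1 reads and 0 B6 reads of Cdh1, whereas Zfp57-/- libraries had 295 and 413 JF1 reads and 328 and 383 B6 reads. The allelic ratio, JF1 reads over JF1 and B6 reads, was thus 1 in both wild-type libraries and 0.474 and 0.519 in Zfp57-/- libraries. The 0 of 309 B6 reads in wild-type cells allow a B6 share of up to 0.00971 (3 reads), and the Wilson interval of the JF1 share is 0.988 to 1. The B6 allele was at least 113-fold higher in Zfp57-/- cells, against a floor of 3 counts per library, and the JF1 allele rose 2.21-fold (log2 1.14 ± 0.21 SE, adjusted p = 0.00287). The bulk count of Cdh1, which takes both alleles together, rose 4.71-fold.

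Genes beside Cdh1 had like ratios. Going along the chromosome from Cdh1, the next 7 genes with enough allelic reads, as far as Zfhx3 at 108 Mb, all had a ratio of 1 in wild-type cells and ratios between 0.348 and 0.548 in Zfp57-/- cells. On either side, Cdh11 had a wild-type ratio of 0.598 and Wwox of 0.505. Beyond Cdh11 the ratio of 1 returned, as in Got2 at -10739 kb from Cdh1, a gene singled out after its value was seen. In the bulk counts, 2 of those 7 neighbours rose and 0 fell, and their median log2 fold change was 0.42, between -0.33 and 1.05, against 2.23 for Cdh1. The wild-type ratio of 1 was therefore shared by these neighbours, and none of them rose as much in the bulk counts as Cdh1. Whether the wild-type line lacks the B6 copy of these genes was not tested.

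Krt8 and Krt18 also differed by allele. Krt8 had allelic ratios of 0.844 and 0.824 in wild-type and 0.572 and 0.546 in Zfp57-/- libraries, from 44 to 1586 B6 reads and 238 to 1909 JF1 reads per library. Krt18 had ratios of 0.811 and 0.781 in wild-type and 0.429 and 0.413 in Zfp57-/- libraries. In both genes the wild-type RNA came mainly from the JF1 allele and the Zfp57-/- RNA from both. The B6 allele of Krt8 rose by 3.82 ± 0.46 on the log2 scale (SE) and its JF1 allele by 1.89 ± 0.41, and for Krt18 these were 4.58 ± 0.25 and 2.18 ± 0.22. By contrast, 26 other genes within 1000 kb of Krt8 had a median wild-type ratio of 0.526. Among them only Atp5g2, at 0.981, lay above the keratins, and the next was Eif4b at 0.645.

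The difference in allelic ratio between genotypes was tested with edgeR over 10977 autosomal genes, in a fit that compares the alleles within each library and then the genotypes. Of the 10 genes 5 passed, against 14.5% of all genes tested. The log2 ratio of JF1 to B6 changed by -10.20 for Cdh1 (adjusted p = 1.7e-25), where the wild-type B6 counts of 0 make the size no bound, by -1.83 ± 0.13 for Krt8 (SE, adjusted p = 5.0e-21) and by -2.28 ± 0.12 for Krt18 (SE, adjusted p = 3.7e-28). Smaller changes were found for Cldn6, whose ratio went from 0.412 and 0.453 to 0.520 and 0.503, and for Cdh2, from 0.507 and 0.509 to 0.574 and 0.546. These were 0.55 ± 0.16 for Cldn6 (SE, adjusted p = 0.00642) and 0.42 ± 0.12 for Cdh2 (SE, adjusted p = 0.00939). Neither passed by DESeq2, with adjusted p of 0.403 and 0.546, nor without wild-type replicate 1, wild-type replicate 2 or Zfp57-/- replicate 1, when 3 of the 10 genes passed. In those 3 fits the adjusted p lay between 0.077 and 0.131 for Cldn6 and between 0.0868 and 0.345 for Cdh2. Epcam, Cldn4, Esrp1, Zeb1 and Zeb2 did not pass, with adjusted p from 0.133 for Epcam to 0.815 for Esrp1. The ratio of Cldn4 rested on 77 wild-type reads, with a Wilson interval of 0.447 to 0.664, against 0.398 to 0.489 in Zfp57-/- cells. Zeb2 had reads of both alleles, at ratios of 0.565 and 0.493, in the Zfp57-/- libraries. The median of its 15 nearest genes there was 0.888 and 0.862, but these genes lie over 11427 kb.

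**Figure D4:**
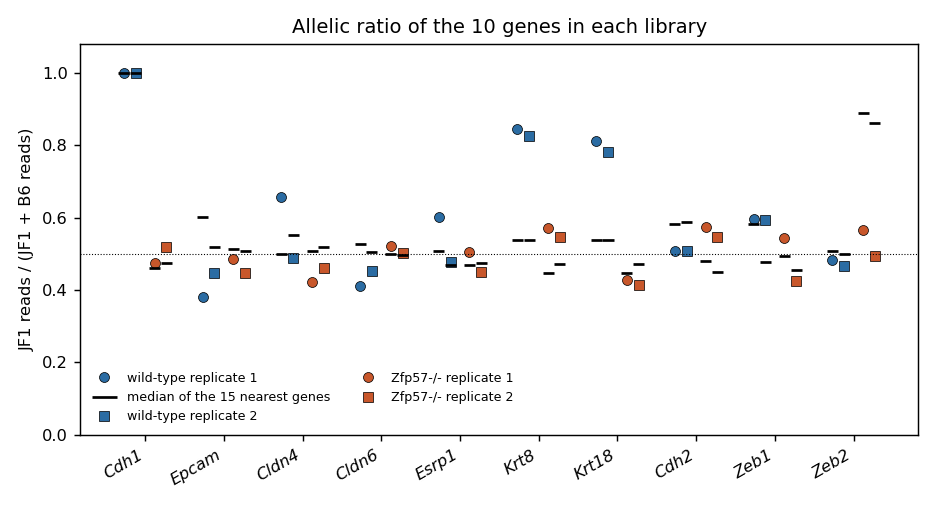
Allelic ratio, JF1 reads over JF1 and B6 reads, of the 10 genes in each library, with wild-type in blue, Zfp57-/- in orange, replicate 1 as circles and replicate 2 as squares. Black bars are the median ratio of the 15 nearest genes in the same library, and the dotted line marks equal alleles. In wild-type libraries, Cdh1 and the median of its 15 nearest genes, which lie over 21591 kb, are at 1, although not each of these genes is. Krt8 and Krt18 lie above a neighbour median of 0.538 there.

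When each allele was compared on its own, the direction of change was that of the bulk counts in each case. Both alleles of the 7 epithelial genes rose and both alleles of Cdh2, Zeb1 and Zeb2 fell. Each of these 20 changes passed the threshold, against 32.6% of all genes tested for the B6 allele and 29.3% for the JF1 allele. Among the 20 was the B6 allele of Cdh1, which had 0 wild-type reads, as in the next 7 genes along the chromosome. Whether the wild-type line lacks that copy was not tested. For Zeb1 the B6 allele fell by 1.64 and the JF1 allele fell by 2.27 on the log2 scale, and for Zeb2 they fell by 1.76 and by 1.45. The alleles come from the same libraries and are not independent replicates. With Zfp57-/- replicate 1 left out 14 of the 20 passed, and with replicate 2 left out 9 did.

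**Figure D5:**
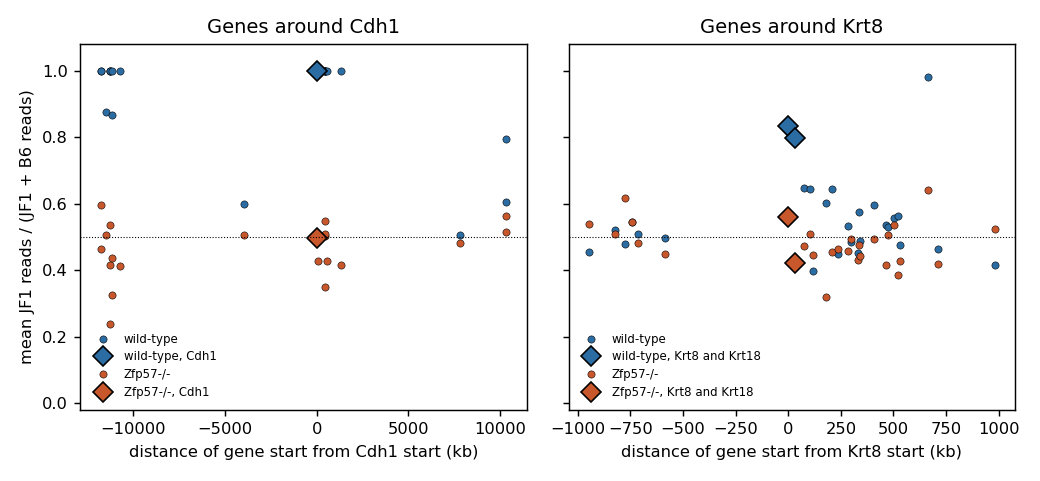
Mean allelic ratio of genes around Cdh1 (left) and Krt8 (right) by the distance of their start, in kb, with wild-type in blue and Zfp57-/- in orange, and Cdh1, Krt8 and Krt18 as diamonds. The next 7 genes to the right of Cdh1 share its wild-type ratio of 1, and Cdh11 on the left lies at 0.598. Farther out, ratios of 1 and lower ratios both occur, such as Kifc3 at 0.875 and Wwox at 0.505. Around Krt8 most wild-type genes lie near their median of 0.526.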

How the data were processed

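Total RNA of 2 wild-type and 2 Zfp57-/- JB1 cultures was cleared of ribosomal RNA and sequenced in stranded, paired-end libraries. After trimming (Trimmomatic 0.36) and alignment to GRCm38 (STAR 2.5.4a, unique alignments only), the authors deposited raw counts of fragments per gene of GENCODE vM20 from featureCounts (Subread 1.6.0), assigned by strand, so that antisense genes were counted apart. For the allele table, the authors deposited the counts of fragments that SNPsplit assigned to JF1 or B6, from an alignment to a masked genome. The deposited tables have no normalization.

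Symbols were matched by gene ID for 54721 of 55602 genes. Genes with more than 8 summed counts were compared with edgeR 4.0.16 in R 4.3.3 (TMM, robust quasi-likelihood test, SE from the fold change and its F). The allele test covered autosomal genes whose allelic counts, after normalization, reached 10 in each wild-type library. E-boxes were searched in RefSeq promoter windows of GRCm38.p6 with Python 3.11.15 and pandas 2.3.3, and plots used matplotlib 3.10.9. Wilson intervals at 95% and floors of 3 counts cover counting error only. The tests were run on simulated data first. Alternatives were DESeq2 1.42.0, other scalings and filters, the replicate number as a block, bulk library sizes for the allele test, and each library left out, which leaves a lone library assumed to vary like the other group.

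The 10 genes and the lists beside them were chosen with earlier results of these data known. Named from each list are at most 2 genes higher and 2 lower with the smallest adjusted p, and for Cdh1 and Cdh2 the 3 nearest profiles, of which 1 for Cdh2 is not reported here.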

Additional observations from a re-analysis of the deposited data

Results flagged for a closer look

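The allelic ratio of 5 genes differed between wild-type and Zfp57-/- cells by a test of the difference itself. From wild-type to Zfp57-/- cells, the log2 ratio of JF1 to B6 changed by -10.20 for Cdh1, by -1.83 for Krt8 and by -2.28 for Krt18, and by 0.55 for Cldn6 and 0.42 for Cdh2. Cldn6 and Cdh2 did not pass by DESeq2, with adjusted p of 0.403 and 0.546, nor in 3 of the 4 fits that leave out a library, so that only Cdh1, Krt8 and Krt18 passed in those fits. For Cdh1 this rests on 0 B6 reads of 309 in wild-type cells, and 7 neighbouring genes had a wild-type ratio of 1 as well. For Krt8 and Krt18 the median ratio of the 15 nearest genes, over 424 kb, was 0.538 in both wild-type libraries. It was 0.447 and 0.472 in Zfp57-/- libraries, a smaller shift in the same direction as that of the keratins. For Cldn6 these medians were 0.528 and 0.506 in wild-type and 0.5 and 0.496 in Zfp57-/- libraries, over 2175 kb. For Cdh2 they were 0.582 and 0.589 against 0.479 and 0.449, but these genes lie over 8998 kb. The neighbours of both genes moved the opposite way from the gene itself, those of Cldn6 only slightly.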

How the results depend on the processing

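All 10 genes kept their direction under all alternatives run, and of their 110 recomputed fold changes 105 stayed past the threshold. The 5 others were Epcam, Cldn6 and Esrp1 with Actb as the scale, when 4 genes were called higher, and Cdh2 without either Zfp57-/- library. The log2 difference in the ratio of Cdh1 to Cdh2 ranged from 3.07 to 3.26. With Actb as the scale, 0 epithelial junction and polarity genes and 0 epithelial regulators and surface proteins passed. Of the other keratins 1 was higher and 1 lower, and of the other mesenchymal genes and repressors 2 were higher and 2 lower. Among the other cadherins 0 were higher and 7 lower, and among the catenins 0 were higher and 4 lower. Other claudins passed in 2 cases without a filter on low counts or with the replicate block, and in 1 to 4 with a library left out. Leaving out a library gave 10 to 20 junction and polarity genes, 7 to 15 regulators and surface proteins, 4 to 12 other cadherins, 3 to 6 catenins, 5 to 11 mesenchymal genes and repressors, 3 to 5 genes with an allelic difference and 9 to 20 changed alleles. DESeq2 gave 3 genes with an allelic difference. The direction for Esrp1 alone reversed, with -0.72 to 0.11 as the range of its allelic difference when a library was left out (0.11 without wild-type replicate 1, adjusted p = 0.949), and it passed in no fit. The cause of these shifts was not tested. The replicate numbers pair nothing known (same-numbered deviations correlated at 0.156 over 12003 genes). With the replicate block, all 10 genes were called, and 6984 genes were called in all against 5522. The fewest allelic reads were those of Cldn4, 77 in wild-type cells.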
